A study of Homo sapiens with 8 samples.

Results

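The NUAK genes are the paralogues NUAK2 and NUAK1, and the data are the peaks of 5 deposited chromatin immunoprecipitation and sequencing (ChIP-seq) lists around their hg19 transcription starts. The starts used were position 205290883 on chromosome 1 for NUAK2 and position 106533811 on chromosome 12 for NUAK1. A peak was taken when its centre lay within 200 kb of either start. This gave 53 of the 51828 peaks in all lists, 24 near NUAK2 and 29 near NUAK1. The members were chosen by the deposited positions of the peaks, so their number and distance are given as a description and carry no test. All libraries came from HuCCT1, a cell line of human bile duct cancer (cholangiocarcinoma), with no treatment, genotype or time named in the labels. The 5 lists, with 1 library each, are TEAD1 (38186 peaks), TEAD4 (12188), HA-YAP5SA (847), YAP (454) and TAZ, the product of WWTR1 (153). HA-YAP5SA is a YAP form whose LATS phosphorylation sites are changed to alanine, enriched here through an HA tag. How the tagged form was introduced is not stated, nor is its presence in the cells used for the YAP library. The background libraries of the series (input, IgG and GFP) were not used here. With 1 library per group no difference can be checked against replicates, and the depth of each library is unknown.

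NUAK1 (also ARK5) and NUAK2 (also SNARK) are serine/threonine kinases of the AMPK-related family, which the tumour suppressor kinase LKB1 (STK11) activates. They act on the myosin phosphatase through its targeting subunit MYPT1 (PPP1R12A) and thereby bear on actomyosin contraction and cell adhesion. YAP and TAZ are the coactivators held back by the Hippo kinases LATS1 and LATS2. They reach DNA mainly through TEAD factors, and NUAK2 is a known YAP and TAZ target gene whose product can in turn restrain LATS. Both NUAK genes are read from the minus strand, so that downstream means lower coordinates below.

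A TEAD1 peak lay over the NUAK2 start and none lay over the NUAK1 start. The NUAK2 start peak (chr1:205290564-205291277, hg19) was centred 37 bp upstream of the start and had a score of 134, at percentile 35.4 of the TEAD1 list. The score is the authors' own value for a peak, on a scale that is not stated, and it is compared here only within a list. The start peak overlapped no TEAD4, HA-YAP5SA or YAP peak, and of the TEAD1 peaks in its score decile 7.49% overlapped TEAD4. The TEAD1 peak nearest to the NUAK1 start (chr12:106529818-106530446) was centred 3.68 kb downstream, with its edge 3365 bp away and a score of 266, percentile 67.3. It overlapped no peak of another list either, and of the TEAD1 peaks in its score decile 30.6% overlapped TEAD4.

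The promoter sequences are shown because the NUAK2 start carries a peak and the NUAK1 start does not. Each is the 250 bases before the start in RefSeq (GRCh38.p14, minus strand, chr1:205321746-205321995 for NUAK2 and chr12:106138955-106139204 for NUAK1), written 5′ to 3′. Capitals mark the TEAD core GGAATG on either strand. These windows belong to another build than the peaks and were not placed on hg19, so whether each RefSeq start is the same base as the hg19 start was not tested.
NUAK2: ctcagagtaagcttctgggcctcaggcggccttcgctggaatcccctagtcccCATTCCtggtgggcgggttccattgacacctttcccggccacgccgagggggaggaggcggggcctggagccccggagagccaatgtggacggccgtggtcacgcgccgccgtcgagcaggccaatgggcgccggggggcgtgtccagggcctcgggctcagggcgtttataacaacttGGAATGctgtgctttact
NUAK1: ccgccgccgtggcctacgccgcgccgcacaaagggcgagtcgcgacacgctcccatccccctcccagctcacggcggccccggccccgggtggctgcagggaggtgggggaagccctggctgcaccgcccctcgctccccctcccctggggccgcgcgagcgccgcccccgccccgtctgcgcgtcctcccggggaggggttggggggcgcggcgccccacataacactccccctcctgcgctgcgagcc

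The NUAK2 window held 2 matches to the TEAD core, beginning 197 and 18 bases before the start, and the NUAK1 window held 0. Among all 35093 promoter windows of this length in the table, 11.9% held at least 1 match and 0.940% held 2 or more. The AP-1 site TGANTCA, which FOS and JUN proteins bind, matched neither window and 6.57% of all windows. The NUAK1 window was richer in G and C, at 79.6% against 66.4% for NUAK2. The other genes listed with the NUAK kinases were the AMPK catalytic subunits, the BRSK, SIK and MARK kinases, SNRK, MELK, STK11, its partners STRADA and CAB39, and PPP1R12A. Of these, 15 had a window in the table and 1 of 15 held the TEAD core, PPP1R12A in 1 of its 4 entries. The AP-1 site was found for BRSK2 and MARK2. A match describes letters in a window and is not a binding site, and no peak was assigned to these 15 genes.

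The gene neighbourhoods held many more peaks than a typical stretch of the genome. TEAD1 had 12 peaks near NUAK2 and 19 near NUAK1, TEAD4 had 8 near each, HA-YAP5SA had 3 and 2, YAP had 1 and 0, and TAZ had none at either. For comparison, chromosomes 1 to 22 and X were divided into 7592 fixed tiles of 400 kb, the length of each gene's window. A tile held a median of 4 TEAD1 peaks (mean 5.00) and 1 TEAD4 peak (mean 1.60). At least 12 TEAD1 peaks, the NUAK2 number, were found in 10.6% of tiles, and at least 19, the NUAK1 number, in 1.78%. At least 8 TEAD4 peaks were found in 2.85% of tiles. For HA-YAP5SA, 0.277% of tiles held 3 or more and 1.32% held 2 or more, and 1.66% of tiles held a YAP peak. A tile held a median of 0 TAZ peaks (mean 0.0132), and 0% of the whole TEAD1 list overlapped TAZ. The absence of TAZ is therefore not particular to these genes. The windows were chosen with these peaks known, so their place among the tiles is a description of how dense they are.

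The peaks near NUAK2 lay closer to the start than those near NUAK1. Within 50 kb there were 7 TEAD1, 5 TEAD4, 2 HA-YAP5SA and 1 YAP peaks for NUAK2, against 4, 2, 0 and 0 for NUAK1. Within 100 kb the TEAD1 counts were equal, at 8 each, so the larger TEAD1 count of NUAK1 rests on peaks between 100 and 200 kb away. The nearest HA-YAP5SA peak was 20.2 kb from the NUAK2 start and 109 kb from the NUAK1 start. The nearest YAP peak to the NUAK1 start was 15153 kb away, and beyond its single window peak NUAK2 had none nearer than 5148 kb. Most peaks lay on the downstream side, with 8 of 12 TEAD1 peaks and 7 of 8 TEAD4 peaks for NUAK2, and 15 of 19 and 7 of 8 for NUAK1. All 5 HA-YAP5SA peaks and the YAP peak were also downstream.

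**Figure D1:**
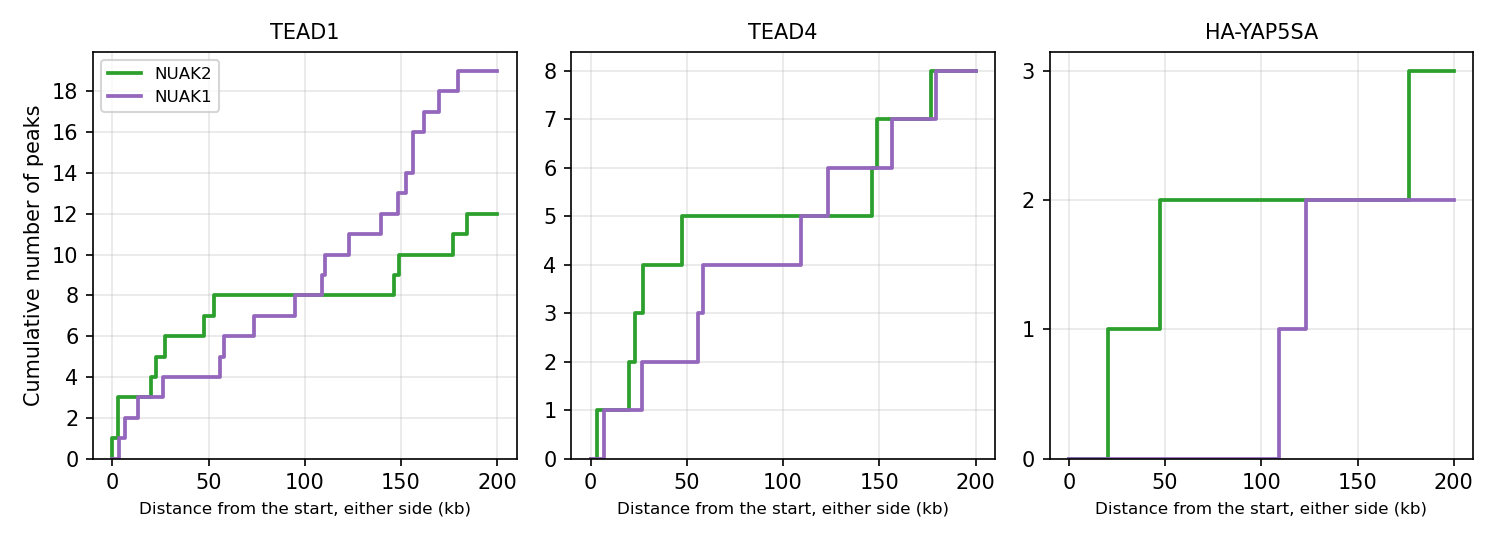
Cumulative number of peaks (y axis) against the distance of the peak centre from the start on either side, in kb (x axis), for NUAK2 (green) and NUAK1 (purple) in the TEAD1, TEAD4 and HA-YAP5SA lists. The TEAD1 lines meet at 8 peaks within 100 kb, and the first HA-YAP5SA step comes at 20.2 kb for NUAK2 and at 109 kb for NUAK1.

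Other genes neighbour the NUAK genes, at distances not measured here. In the order of protein-coding genes in RefSeq (GRCh38.p14), the downstream side of NUAK2 holds TMCC2, then DSTYK and RBBP5, and the upstream side KLHDC8A, LEMD1 and BLACAT1. Downstream of NUAK1 come C12orf75, APPL2 and WASHC4, and upstream CKAP4, TCP11L2 and POLR3B. An hg19 annotation was not used here, so no peak is called exonic, intronic or intergenic. Distance from a start does not tell which gene a peak acts on.

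Near NUAK2 the highest TEAD1 and TEAD4 scores were at a site 20.2 kb downstream. This leading site held peaks of 4 lists, TEAD1 (chr1:205270277-205271102), TEAD4 (chr1:205270119-205271321), HA-YAP5SA (chr1:205270510-205270879) and YAP (chr1:205270572-205270764). Their centres lay close together, with HA-YAP5SA 5 bp, YAP 21 bp and TEAD4 31 bp from the TEAD1 centre. The TEAD1 score there was 1649 (rank 280 of 38186) and the TEAD4 score was 3100, the highest of its list and shared by 5 TEAD4 peaks. Whether 3100 is an upper limit of the TEAD4 score is not stated. This TEAD4 peak was also wide, at 1203 bp, rank 30 by width. HA-YAP5SA at the same site scored 120, rank 393 of 847, and YAP scored 81.5, rank 443 of 454. The site was therefore at the top of the TEAD4 list, near the middle of the HA-YAP5SA list and close to the lowest YAP score deposited.

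The leading site stood at the end of a row of 3 TEAD1 peaks, all with TEAD4. The other members of the row were centred 23.0 kb downstream of the start (TEAD1 score 776, TEAD4 score 518) and 27.2 kb downstream (TEAD1 score 807, TEAD4 score 532), and neither had HA-YAP5SA. Rows of 3 consecutive TEAD1 peaks with centres within 10 kb of each other took in 6 of 12 TEAD1 peaks near NUAK2 and 6 of 19 near NUAK1, against 16.1% of the TEAD1 list. Of the 2661 such rows in the list, at any TEAD1 score, 6.46% had TEAD4 at all 3 peaks. The 3 peaks of the NUAK2 row with TEAD4 were all in the highest TEAD1 score decile. In that decile 97.0% of peaks had TEAD4, so TEAD4 at all 3 is usual for their scores. Another strong site lay 47.4 kb downstream (chr1:205243099-205243850), where TEAD1 scored 1190, TEAD4 657 and HA-YAP5SA 120. Near the start itself a row of 3 TEAD1 peaks was weaker. It comprised the start peak, a peak 3.06 kb downstream with a score of 81.1 (rank 37779, the lowest near NUAK2) and a peak 3.20 kb upstream with a score of 358 and a TEAD4 score of 152.

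Farther out the NUAK2 window held 3 more sites with TEAD4, all downstream. The outermost (chr1:205113647-205114461), 177 kb away, had the second-highest TEAD1 score of the window, 1535, with TEAD4 at 575 and a narrow HA-YAP5SA peak of 137 bp at 97.8. The others lay 146 kb away (TEAD1 score 1047, TEAD4 score 494) and 149 kb away (TEAD1 score 618, TEAD4 score 166). Upstream of the start beyond the nearest 10 kb there were only 2 TEAD1 peaks, 52.9 and 184 kb away, with scores of 180 and 163 and no partner. The stretch of 131 kb between them was the largest gap between neighbouring TEAD1 peaks of this window.

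**Figure D2:**
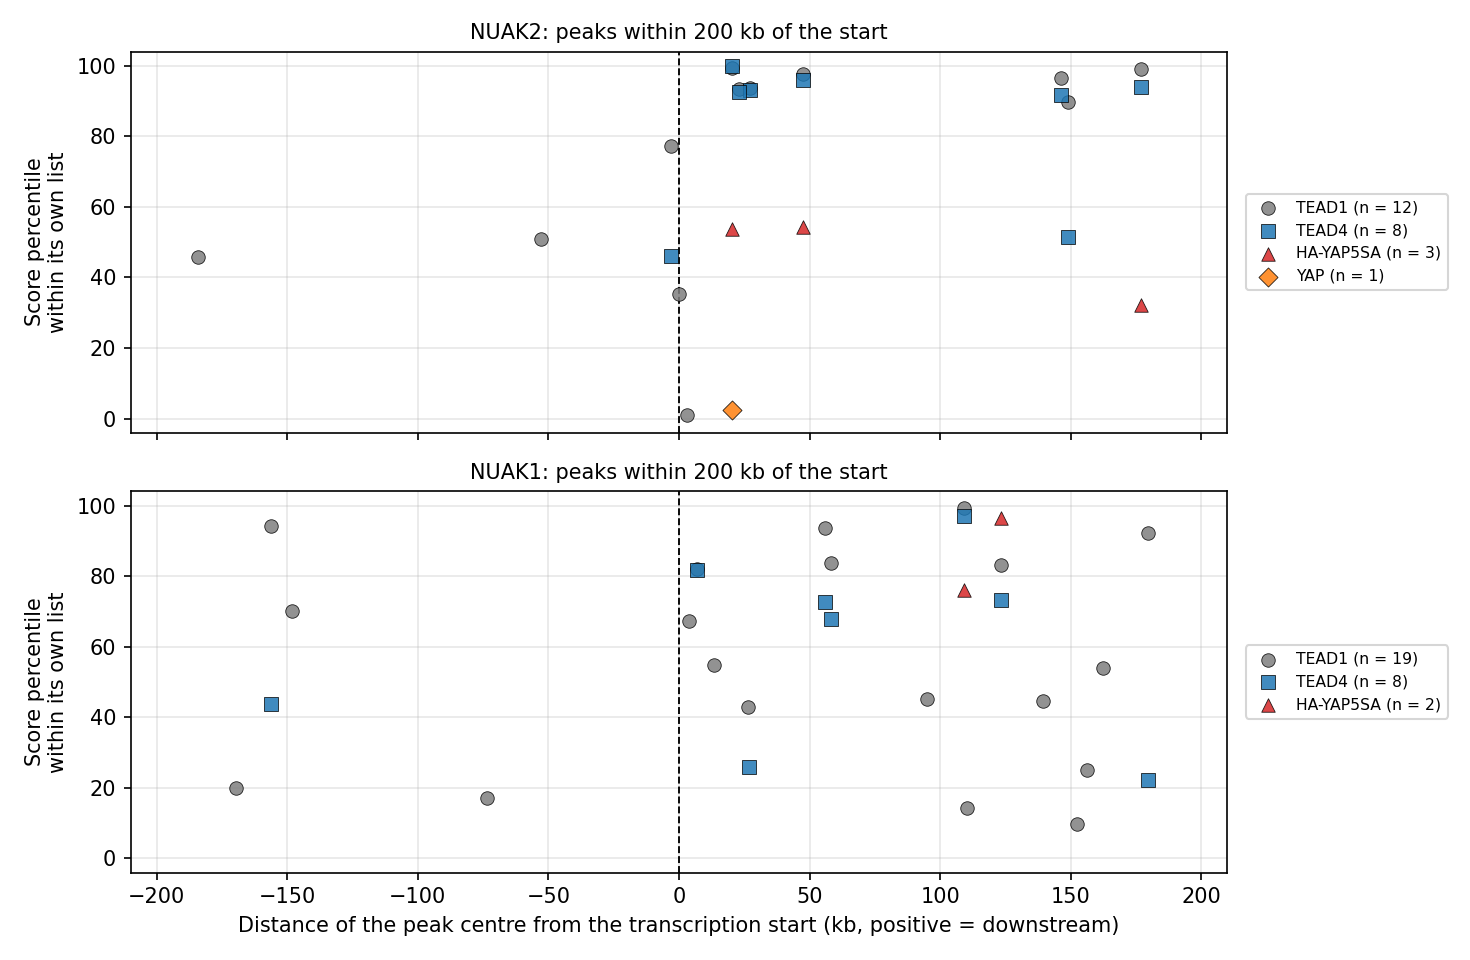
Distance of each peak centre from the transcription start in kb (x axis, positive is downstream) against the percentile of its score within its own list (y axis), for NUAK2 (top) and NUAK1 (bottom). Points are single peaks, marked by list; near NUAK2 the TEAD1 and TEAD4 points 20 to 50 kb downstream sit above percentile 90 while HA-YAP5SA sits near 54 and YAP at 2.53, and near NUAK1 the HA-YAP5SA points sit at 76.0 and 96.4.

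Near NUAK1 the sites with HA-YAP5SA lay 109 and 123 kb downstream, and their ranks ran in opposite orders in the TEAD and HA-YAP5SA lists. At the nearer site TEAD1 (chr12:106424131-106425164) scored 1746, rank 232 of 38186, and TEAD4 (chr12:106424228-106424937) scored 756, rank 348 of 12188. HA-YAP5SA there (chr12:106424643-106424932) scored 176, rank 204 of 847. At the farther site HA-YAP5SA (chr12:106410319-106410790) scored 417, rank 31, the highest of the 5 HA-YAP5SA peaks near either gene. TEAD1 (chr12:106410408-106410973) scored only 450 there, rank 6456, and TEAD4 (chr12:106410408-106410837) 259, rank 3258. The HA-YAP5SA centre lay 136 bp from the TEAD1 centre at the farther site and 140 bp at the nearer, against 5, 92 and 97 bp at the 3 NUAK2 sites.

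Closer to the NUAK1 start no TEAD site had HA-YAP5SA or YAP. Over the whole TEAD1 list 2.06% of peaks overlapped HA-YAP5SA and 0.21% YAP, and in its highest score decile 17.3% and 1.52%. The absence is therefore not particular to these sites. The TEAD4 peak nearest to the start (chr12:106526832-106527284), 6.75 kb downstream, scored 330 and lay on a TEAD1 peak of 429. A broad TEAD1 peak of 1304 bp 26.5 kb downstream had a low score of 154 and a TEAD4 peak of 111. A pair of neighbouring sites 55.8 and 58.2 kb downstream had TEAD1 scores of 809 and 463 and TEAD4 scores of 256 and 229. The remaining TEAD4 sites were at the margins of the window. The site 179 kb downstream had a TEAD1 score of 717 over 1236 bp but a TEAD4 score of 106, and the site 156 kb upstream had scores of 836 and 146.

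The other 11 TEAD1 peaks near NUAK1 had no partner, with scores from 91.3 to 288 and a median of 159. The 4 TEAD1 peaks without a partner near NUAK2 ranged from 81.1 to 180, with a median of 148. Over the whole list, TEAD1 peaks without TEAD4 had a median score of 136. All 15 of these peaks were below the highest decile of the TEAD1 list. This holds for nearly all of the 26518 TEAD1 peaks without TEAD4, as 3705 of the 3819 peaks in that decile had TEAD4.

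TEAD1 peaks near NUAK2 were concentrated at the top of the TEAD1 list. Their scores ran from 81.1 to 1649 with a median of 697, and those near NUAK1 from 91.3 to 1746 with a median of 197, against 177 for the whole list. The highest score decile, which holds 10% of all TEAD1 peaks, contained 6 of the 12 peaks near NUAK2 (50%, exact 95% interval 21.1 to 78.9%) and 4 of the 19 near NUAK1 (21.1%, 6.05 to 45.6%). These intervals cover counting error over peaks only, and they overlap. They treat neighbouring peaks as independent and are no comparison of the genes. The number of TEAD1 peaks at or above the list median was 9 near NUAK2 and 11 near NUAK1. TEAD4 scores followed the same order, with medians of 525 near NUAK2 and 243 near NUAK1, and 6 and 1 of 8 peaks in the top decile of the TEAD4 list.

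**Figure D3:**
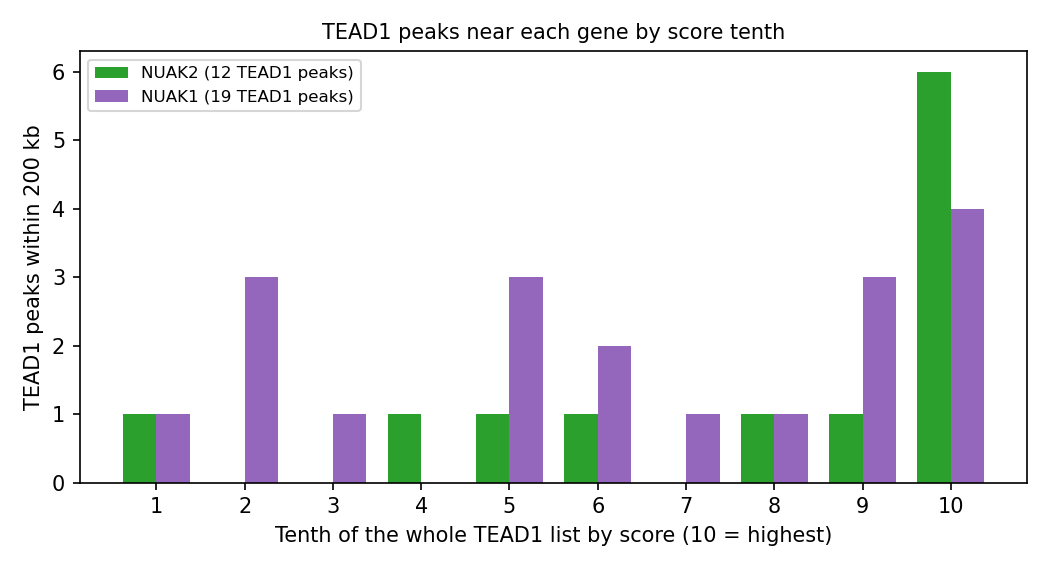
Number of TEAD1 peaks within 200 kb of each gene (y axis) in each decile of the whole TEAD1 list by score (x axis, 10 is highest), for NUAK2 (green) and NUAK1 (purple). NUAK2 has 6 of its 12 peaks in the highest decile, and the 19 NUAK1 peaks are spread over 9 of the 10 deciles.

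TEAD4 was present at about as many TEAD1 peaks as the list gives at their scores. It overlapped 8 of 12 TEAD1 peaks near NUAK2 (66.7%, interval 34.9 to 90.1%) and 8 of 19 near NUAK1 (42.1%, 20.3 to 66.5%), against 30.6% of the whole TEAD1 list. When each peak was given the TEAD4 share of its own score decile, the sums were 7.52 for NUAK2 and 7.93 for NUAK1. In the highest decile of the TEAD1 list 97% of peaks had TEAD4, and so did all 6 such peaks near NUAK2 and all 4 near NUAK1. All 16 TEAD4 peaks lay on a TEAD1 peak, as did 97.1% of the TEAD4 list.

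HA-YAP5SA overlapped 3 of 12 TEAD1 peaks near NUAK2 (25%, interval 5.49 to 57.2%) and 2 of 19 near NUAK1 (10.5%, 1.30 to 33.1%), against 2.06% of the TEAD1 list. The shares of the score deciles summed to 1.07 and 0.769. Among TEAD1 peaks of the highest decile HA-YAP5SA was present at 3 of 6 and 1 of 4, against 17.3% of that decile. The share rises within the decile. Within 1 percentile point of the leading NUAK2 site, 325 other TEAD1 peaks had HA-YAP5SA and 659 had TEAD4. Around the NUAK2 sites 177 and 47.4 kb downstream these numbers were 343 and 760, and 176 and 756. Around the NUAK1 site 109 kb downstream they were 307 and 612. The 17.3% is therefore too low for the highest TEAD1 ranks, and the sums rest on such whole-decile shares. All 5 HA-YAP5SA peaks carried both TEADs, and 95.2% of the HA-YAP5SA list overlapped TEAD1 and 92.4% TEAD4. YAP overlapped 1 of 12 and 0 of 19 TEAD1 peaks, against 0.21% of the list. Of the YAP list itself only 20.3% overlapped TEAD1, 18.5% TEAD4 and 11.9% HA-YAP5SA. Of the HA-YAP5SA peaks 1 of 3 near NUAK2 and 0 of 2 near NUAK1 overlapped YAP, against 6.49% of that list. The intervals of the paralogues overlap, but they rest on few peaks of 1 library and treat neighbouring peaks as independent. They are therefore no comparison of the genes.

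Where TEAD4 and TEAD1 coincided, the TEAD4 score was set beside those of TEAD1 sites of nearly the same TEAD1 rank, within 1 percentile point. Near NUAK2 the TEAD4 score was above the median of such sites at 6 of 8 sites, and near NUAK1 at 5 of 8. The leading NUAK2 site had 656 of 659 such sites below it, whose median TEAD4 score was 688. The other members of its row stood at percentiles 95.5 and 95.9 of their own near-rank sites, where medians were 277 and 272. The lowest were at the NUAK1 margins, where the TEAD4 scores of 106 and 146 stood at percentiles 3.66 and 7.85. TEAD4 scores were thus high for their TEAD1 rank in the row 20 to 27 kb downstream of NUAK2 and low at the outer sites of NUAK1. These are the extremes, and other sites went the other way. The NUAK2 sites 177 and 149 kb downstream stood at percentiles 37.0 and 28.8. The NUAK1 sites 6.74 and 58.2 kb downstream stood at 94.3 and 79.3.

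**Figure D4:**
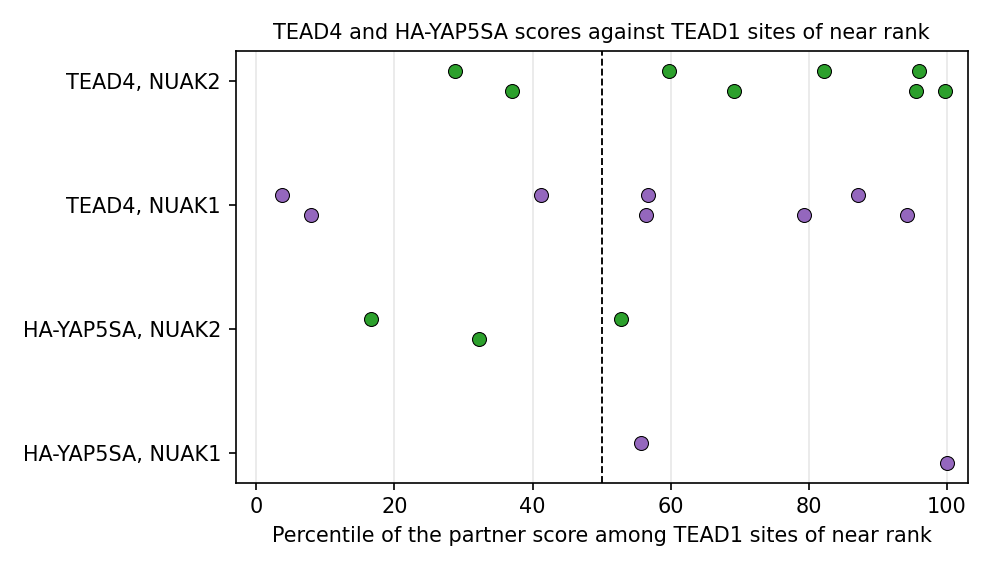
Percentile of the TEAD4 or HA-YAP5SA score (x axis) among TEAD1 sites within 1 percentile point of the same TEAD1 score that carry the same partner, for each site near NUAK2 (green) and NUAK1 (purple). The dashed line marks the median of such sites; TEAD4 is above it at 6 of 8 NUAK2 sites and 5 of 8 NUAK1 sites, and HA-YAP5SA at 1 of 3 and 2 of 2.

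HA-YAP5SA scores did not run in the order of the TEAD1 scores near either gene. Near NUAK2 the HA-YAP5SA peaks scored 120, 120 and 97.8, against a list median of 114. They lay on TEAD1 peaks at percentiles 99.3, 97.6 and 99.0. Such ranks are usual, as the median TEAD1 percentile over all 806 HA-YAP5SA peaks on TEAD1 was 97.6. At 2 of the 3 sites the HA-YAP5SA score was below the median of TEAD1 sites of near rank (156 at the leading site and 153 at the outermost site). Near NUAK1 the site 123 kb downstream went the other way. Its score of 417 exceeded all 10 HA-YAP5SA peaks at TEAD1 sites of near rank, whose range was 82.3 to 153. That range depends on the cut. Just outside it, HA-YAP5SA scored 306 at TEAD1 percentile 84.2 and 296 at percentile 82.0, also below 417. Of the 30 HA-YAP5SA peaks on TEAD1 with at least this score, itself included, none lay on a TEAD1 peak of lower score. This site was singled out after its values were seen.

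**Figure D5:**
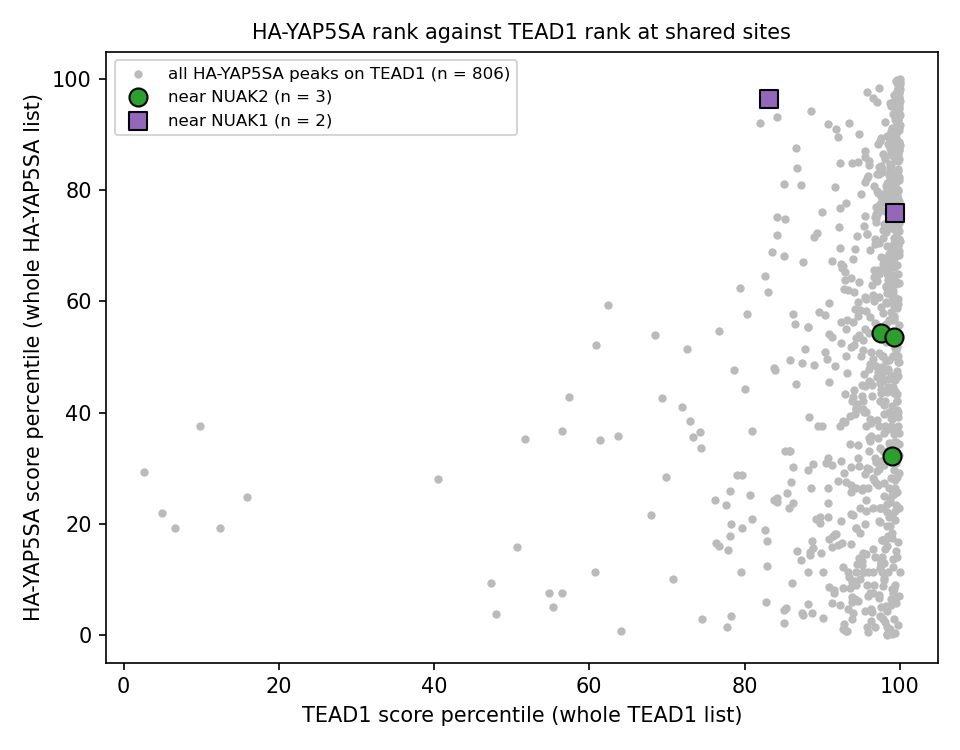
TEAD1 score percentile (x axis) against HA-YAP5SA score percentile (y axis) for the 806 HA-YAP5SA peaks that overlap TEAD1 (grey), with those near NUAK2 (green circles) and NUAK1 (purple squares). The NUAK1 site at TEAD1 percentile 83.1 and HA-YAP5SA percentile 96.4 lies to the left of all grey points at its height or above.

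The YAP antibody gave a single peak, of low score, near NUAK2 and none near NUAK1. The YAP peak at the leading NUAK2 site is among 52 YAP peaks of the series that also carry HA-YAP5SA, TEAD1 and TEAD4. By YAP score it ranked 51 of these 52, whose median was 107 and whose range was 80.1 to 924. At or above the median score of the YAP list it would not have been counted. Of the 5 TEAD4 peaks that share the highest TEAD4 score, 4 overlapped TEAD1, 3 overlapped HA-YAP5SA and 2 overlapped YAP. The 3 with HA-YAP5SA stood at percentiles 53.7 (NUAK2), 76.4 and 99.9 of the HA-YAP5SA list.

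Sites elsewhere with the most similar ranks were found by the summed difference of percentiles over the lists present, among TEAD1 peaks with the same combination of lists. For the leading NUAK2 site, 51 other TEAD1 peaks carried TEAD4, HA-YAP5SA and YAP. The closest were on the unlocalized scaffold gl000192 of chromosome 1 (540508 to 541450, summed difference 8.80 percentile points) and on chromosome 11 (75091489 to 75092213, 11.3 points). The third, on chromosome 3 (136343971 to 136344657), was 31.0 points away. For the leading NUAK1 site, 709 other TEAD1 peaks carried TEAD4 and HA-YAP5SA without YAP or TAZ. The closest were on chromosome 10 (54643632 to 54644312, 2.25 points), chromosome 11 (130188041 to 130188821, 2.26 points) and chromosome X (48345321 to 48346294, 2.36 points). The NUAK1 combination was common and closely matched elsewhere, and the NUAK2 combination was rarer and matched less closely, over 1 more list.

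The limit of 200 kb left out few peaks next to it. The last TEAD1 peak inside it was 184 kb upstream for NUAK2 (score 163) and the first outside 222 kb upstream (score 260). For NUAK1 the last inside was 179 kb downstream (score 717) and the first outside 204.7 kb downstream (score 877, with a TEAD4 peak of 267). The first HA-YAP5SA peaks outside were 1002 kb from the NUAK2 start and 654 kb from the NUAK1 start.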

How the data were processed

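Chromatin of HuCCT1 cells was cross-linked, sonicated, precipitated and sequenced, per the labels' protocols. Bowtie2 and hg19 are named in the submitters' processing notes, and the deposited peak names begin with MACS, a peak caller. For the caller, the sources used here give no version, threshold or control. The deposited score of a peak is the authors' value on an unstated scale. Each list came from 1 library, so no peaks were pooled. A list reflects precipitation strength, depth, control and threshold together, so list sizes do not measure numbers of binding sites, and depth is unknown.

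Starts of lists without a header were taken as counted from 0 and raised by 1. Peaks belonged to a window by their centre and were shared when at least 1 bp overlapped. A percentile is the share of a list with a lower score, with tied scores placed at the middle of their ranks. Intervals are exact Clopper-Pearson intervals at 95%. No test was made. The members, lists and rules were chosen with earlier results of these data known. Peaks were named by rule: every HA-YAP5SA, YAP, TAZ and TEAD4 peak, and TEAD1 peaks that share a site among the 10 highest of a window, nearest the start or lowest in score. Other TEAD1 peaks named were chosen after their values were seen. The comparisons by score decile and near rank, and the rows of 3 peaks, were also added then. RefSeq tables gave strand, promoter sequences and gene order. The overlap, rank and tile functions were tested on simulated data. Scripts ran in Python 3.11.15 with SciPy 1.17.1, pandas 2.3.3, NumPy 2.4.6 and matplotlib 3.10.9.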

Additional observations from a re-analysis of the deposited data

How the results depend on the processing

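Of 91 alternative values, 67 stayed within 1.5 times the reported count or within the interval of the reported percentile, and no overlap count changed beyond that under the overlap of 50% or centres within 500 bp. The 67 include counts of 0, for TAZ at both genes and YAP at NUAK1. A smaller window or a score limit could not change these, so the tally overstates stability. Counts depended on the window. Within 100 kb there were 5 TEAD4 peaks near NUAK2, and near NUAK1 8 TEAD1, 4 TEAD4 and 0 HA-YAP5SA peaks. Within 50 kb there were 7 TEAD1 and 5 TEAD4 peaks near NUAK2, and 4 TEAD1, 2 TEAD4 and 0 HA-YAP5SA peaks near NUAK1. Within 500 kb NUAK1 had 31 TEAD1 peaks and NUAK2 had 15. With each list limited to scores of its median or more, NUAK2 had 0 YAP peaks and NUAK1 had 11 TEAD1 and 5 TEAD4 peaks. With the TEAD1 list reduced to the length of the TEAD4 list, an alternative chosen after seeing the data, each gene had 8 TEAD1 peaks. Ranked by width, the leading NUAK2 peaks stood at percentiles 90.9 (TEAD1), 99.8 (TEAD4) and 10.0 (YAP), and the leading NUAK1 peaks at 97.1 (TEAD1), 98.0 (TEAD4) and 94.3 (HA-YAP5SA). Among tiles with a TEAD1 peak only, the TEAD1 counts stood at percentiles 87.9 (NUAK2) and 98.1 (NUAK1) and the TEAD4 count at 97.1 for both. No paired analysis was possible because each group has 1 library. Depth is unknown, so an absent YAP or TAZ peak says only that none is in that list.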
